A study of Mus musculus with 27 samples.

Results

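Bone marrow-derived macrophages (BMDM) stimulated with Poly(I:C) for the first time were compared with BMDM that met Poly(I:C) again after an earlier exposure. These are 6 of the 27 arrays of the series, 3 acute and 3 re-stimulated, chosen by their labels. Of the 55681 probes with deposited values, 27139 were compared, which name 13768 genes of the RefSeq table. In the acute or in the re-stimulated group, the scanner software had marked each as well above background on 2 or 3 of the 3 arrays. The BMDM came from female C57BL/6 mice aged 6 to 8 weeks and were grown for 7 days in medium conditioned by L929 cells, a fibroblast line that supplies macrophage growth factor. Acute cells received 10 µg/ml Poly(I:C) for 4 h. Re-stimulated cells received 10 µg/ml for 24 h, were washed in PBS, rested in fresh medium and received the same dose for another 4 h. No group carried a genetic change, and 3 arrays of unstimulated (naïve) BMDM give the starting levels, though these arrays differed among themselves. Cells were moved to medium without L929 conditioned medium, rested for 24 h and then stimulated without added growth factor. Re-stimulated cells were thus about a day longer in culture, and without that growth factor, than acute cells. That time, the missing growth factor and the earlier stimulation cannot be told apart. The methods describe a replicate at one place as a separate mouse and at another as a separate pool of marrow from several mice, cultured fresh or from frozen stocks, so the p-values measure the spread between these cultures. Each array carries Cy3-labelled RNA of a whole culture, in which fewer cells of a type and less RNA per cell cannot be told apart.

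Poly(I:C) is a synthetic double-stranded RNA that stands in for viral RNA. It is bound by Toll-like receptor 3 in endosomes, which signals through the adaptor TRIF (gene Ticam1) to NF-κB and to the interferon regulatory factors, and by the cytosolic sensors MDA5 (Ifih1) and RIG-I (Ddx58), which signal through MAVS. The interferon-β made in response acts back on the cell through JAK kinases and STAT factors and switches on the interferon-stimulated genes. Macrophages that have answered a Toll-like receptor ligand often answer it differently the next time, a state called tolerance where the second answer is lower and training where it is higher.

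Values are the authors' log2 intensities after background correction and quantile normalization, given in the order replicate 1, 2 and 3, and a change is the mean of the re-stimulated arrays minus the mean of the acute arrays on that scale. A gene was said to rise or fall on re-stimulation when limma gave an adjusted p under 0.05 and the change was at least 1.5-fold, and all adjusted p-values are from limma over the 27139 probes.

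Replicate 3 stood apart in both groups. Its values lay a median of 0.243 (acute) and 0.238 (re-stimulated) from their group means, against 0.164 to 0.176 for the other 4 arrays. Genes of granulocytes and their precursors, which arise from the same marrow, separated it plainly. S100a9, a calcium-binding protein that fills neutrophils, read 16.21, 17.22 and 7.31 after acute and 15.48, 16.41 and 7.08 after re-stimulation, and 15.63, 16.20 and 4.57 in naïve cells. Ltf, lactoferrin of neutrophil granules, read 11.26, 12.64 and 3.02 after acute and 10.79, 12.35 and 3.77 after re-stimulation. Ly6g, the surface marker of neutrophils, read 10.08, 10.62 and 2.67 and then 12.29, 12.78 and 6.42. So replicate 3 was low for these genes at every stage, while Elane, the neutrophil elastase of early precursors, read between 11.12 and 12.15 on all 6 arrays. All 7 granulocyte markers were tested and 0 passed. With the replicate number as a block 1 rose, Ly6g, the only one with a higher mean (change 2.71). The summed level of the list ran from 12.43 to 17.70 on the acute and from 12.74 to 16.99 on the re-stimulated arrays. The part of the granulocyte genes in the differences between replicates was not tested. All 10 macrophage markers were well above background on every array, with summed levels of 19.49 to 19.56 and 19.09 to 19.48. Csf1r, the receptor for macrophage growth factor, differed by -0.07 (adjusted p 0.822). The list as a whole leaned lower on re-stimulation, with 8 of 10 means lower, a median change of -0.57 and 1 member, Mertk, that fell. With replicates 1 and 2 alone 5 of the 10 fell, and without re-stimulated replicate 3 it was 4. Over all 27139 probes 5739 passed in the first of these settings and 3129 in the second, against 1338 with all 6 arrays. Among the T cell markers Cd3d and Cd3g were not above background on any of the 6 arrays, nor were Klrb1c of NK cells and Xcr1 of dendritic cells, while Cd3e, Lck, Cd79a, Cd79b, Zbtb46 and Siglech were above it on all 6. The members of the lists for T, B, NK, dendritic, mast, fibroblast and erythroid cells that could be tested gave 0 that passed. Between 45% and 49.8% of probes were well above background on each of the 6 arrays, and 0 were saturated.

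**Figure D1:**
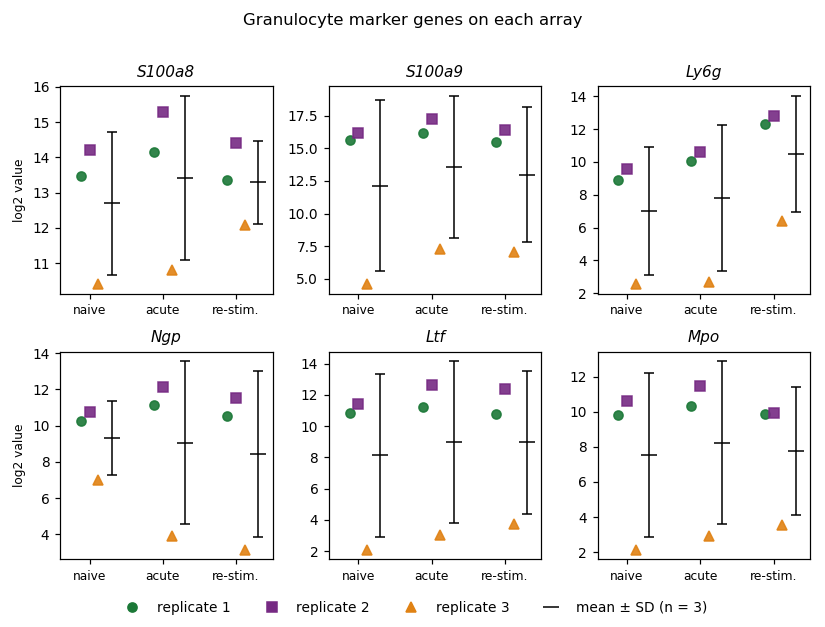
Log2 value (vertical axis) of 6 granulocyte marker genes on each naïve, acute and re-stimulated array. Points are arrays, coloured and shaped by replicate, and black marks are means ± SD of 3 arrays. Replicate 3 lies below replicates 1 and 2 in every panel and stage, as for S100a9 at 7.31 against 16.21 and 17.22 after acute stimulation.

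On re-stimulation 1338 of 27139 probes passed (4.93%). There were 627 higher probes (2.31%), which name 443 genes, and 711 lower probes (2.62%), which name 497 genes. The acute and re-stimulated values of all 1338 did not overlap, and all 1338 differed in the same direction in each of the 3 replicates. Values that do not overlap were common, however, at 32.1% of all probes tested (17% higher, 15.1% lower). The median change of all probes was 0.0021. An unadjusted p under 0.05 was reached by 7100 probes, and the smallest adjusted p was 0.0117. How many probes passed turned on single arrays. Without acute replicate 1 or 2, or without re-stimulated replicate 1 or 2, 0 probes passed, with smallest adjusted p-values of 0.0643 to 0.0792 and 4713 to 5260 probes at an unadjusted p under 0.05. Without acute replicate 3 there were 1220 higher and 1104 lower probes, and without re-stimulated replicate 3 there were 1602 and 1527. With replicate 3 left out of both groups there were 3130 and 2609, among them 1282 of the 1338. List counts given below for replicates 1 and 2 alone stand against these 5739 of 27139 probes. Each replicate number is also 1 array slide. With the replicate number as a block, 843 probes were higher and 905 lower, and 958 of the 1338 passed again. Scaling each array to its median in place of quantile normalization moved the median change of all probes to 0.24 and gave 1010 higher and 531 lower probes, or 65.5% higher against 46.9%. Every change below is on the quantile normalized scale, on which the median of all probes hardly moved, unless another setting is named. The direction of all 1338 was kept under each of these settings. As their values did not overlap, only median scaling could have turned it.

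**Figure D2:**
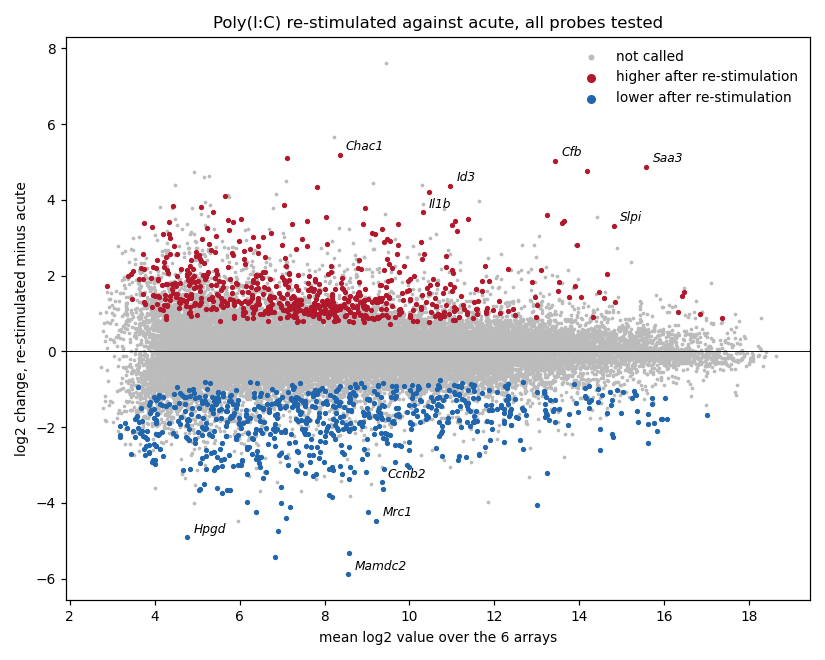
Log2 change on re-stimulation (vertical axis, re-stimulated minus acute mean of 3 arrays each) against the mean log2 value over the 6 arrays (horizontal axis) for all 27139 probes tested. Red points are the 627 probes that were higher and blue points the 711 that were lower by limma (adjusted p under 0.05, at least 1.5-fold). Some large changes did not pass and are grey.

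The naïve arrays show from where these genes moved, as a description with no test, since the acute values enter both sides of it. They were uneven, with 45.8% to 74.6% of probes well above background, against 45% to 49.8% on the acute and re-stimulated arrays. The acute-phase gene Saa3 read 9.77, 10.07 and 13.51 in naïve cells. Tnf read 13.44 in naïve replicate 3, against a naïve mean of 10.66. Ifnb1 was even, at 3.13, 2.95 and 2.93. How far naïve replicate 3 moved the shares below was not tested. Of the 711 lower probes, 275 (38.7%) had an acute mean at least 1.5-fold above the naïve mean, 349 (49.1%) lay within 1.5-fold of it and 87 (12.2%) lay below. Among all probes tested the same shares were 17.1%, 68.1% and 14.8%. After re-stimulation 485 of the 711 (68.2%) lay at least 1.5-fold below the naïve mean, against 18.4% of all probes tested. Of the 627 higher probes, 308 (49.1%) had an acute mean at least 1.5-fold below the naïve mean and 61 (9.73%) at least 1.5-fold above it. After re-stimulation 391 (62.4%) lay at least 1.5-fold above the naïve mean, against 19.9% of all probes tested. Genes induced by the first stimulation and lower at the second thus made up a minority of the lower probes, and many lower probes belong to genes that resting macrophages already used.

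The largest falls given here were of that kind with 1 exception. Mamdc2, which encodes a MAM domain protein, read 12.24, 11.65 and 10.60 after acute and 5.60, 4.85 and 6.40 after re-stimulation, from 12.67, 11.87 and 10.79 in naïve cells. It fell by 5.88 ± 0.54 (SE), a 58.9-fold change (adjusted p 0.0171), at a probe at chr19:23377589-23377648 of mm9. All 3 re-stimulated arrays lay far below all acute and naïve arrays, with replicate 3 the least low. Hpgd, the enzyme that inactivates prostaglandins, read 8.03, 8.18 and 5.45 after acute stimulation and was not well above background on any re-stimulated array. Set against the lowest signal well above background it was 22.6-fold lower (adjusted p 0.0336), having been tested through the acute arrays alone. With normexp background correction the change was -1.87 and did not pass (adjusted p 0.0632). Sult1a1, a sulfotransferase for phenolic compounds, fell 26.7-fold (9.11, 9.30 and 9.38 to 4.07, 3.69 and 5.83, adjusted p 0.0206), and Pcp4l1, a relative of the calmodulin-binding protein PCP4, fell 40.2-fold (adjusted p 0.0343). Slc9a9, a sodium-proton exchanger of endosomes, fell 18.7-fold (adjusted p 0.0426). For Sult1a1 and Slc9a9 only 1 re-stimulated array was well above background, so both were tested through the acute arrays alone and their folds are set against background. In other settings their changes were as small as -2.88 and -2.18. Slc9a9 did not pass with the processed signal scaled to its 75th percentile or with no detection filter. Lhx2, a LIM homeobox transcription factor, was the exception: it read 4.22, 3.69 and 2.83 in naïve cells, 11.88, 11.67 and 9.85 after acute and 6.99, 6.52 and 7.17 after re-stimulation, a fall of 18.9-fold (adjusted p 0.0232) that left it above the naïve arrays.

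**Figure D3:**
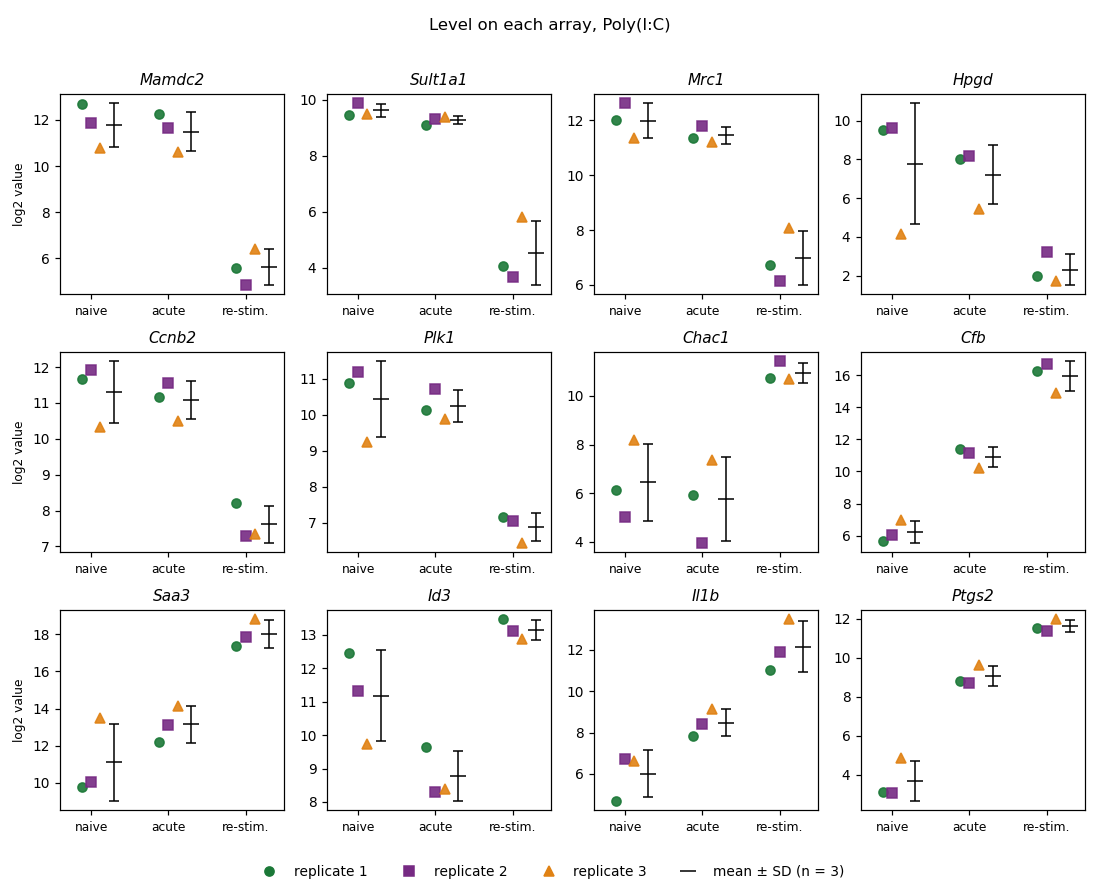
Log2 value (vertical axis) of 12 genes on each naïve, acute and re-stimulated Poly(I:C) array. Points are arrays by replicate, and black marks are means ± SD of 3 arrays. Mamdc2, Sult1a1, Mrc1, Hpgd, Ccnb2 and Plk1 lie lower on all re-stimulated than on all acute arrays, and Chac1, Cfb, Saa3, Id3, Il1b and Ptgs2 lie higher.

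Several receptors with which macrophages bind and clear material fell on re-stimulation. Of 17 tested genes of this kind, 9 fell, 1 rose and 7 did not pass (58.8% passed against 4.93%), with a median change of -1.42. The list was gathered after the values had been seen, so its count is a description. Mrc1, the mannose receptor CD206, read 11.35, 11.80 and 11.21 after acute and 6.73, 6.14 and 8.07 after re-stimulation, a fall of 22.2-fold (change -4.47 ± 0.50 SE, adjusted p 0.0201). Clec10a, a galactose-binding lectin, read 7.36, 8.66 and 8.60 and then 4.11, 5.45 and 5.50 (9.11-fold, adjusted p 0.0329). Trem2, a lipid receptor, read 17.39, 16.94 and 16.54 and then 15.48, 15.07 and 14.97 (3.44-fold, adjusted p 0.0298). In all 3 the groups were well separated. Itgax, the integrin CD11c, fell 5.04-fold, Lrp1, an endocytic receptor for proteases and lipoproteins, fell 2.68-fold, and Mertk, a receptor for dying cells, fell 2.9-fold, though its adjusted p of 0.0467 became 0.0624 with the replicate block. Vsig4, a receptor for complement-coated particles, was not well above background on any re-stimulated array. Set against the lowest signal well above background it was 4.13-fold lower. Siglec1, a sialic acid receptor and interferon-stimulated gene, went the other way: it read 10.73, 10.95 and 10.26 and then 13.10, 12.96 and 12.64 (4.76-fold higher, adjusted p 0.0199). With median scaling 6 of the 17 fell and 1 rose, and with the replicate block 7 fell and 1 rose. With no detection filter 2 fell and 1 rose, and with replicates 1 and 2 alone 12 fell and 1 rose.

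Of 25 lysosomal and scavenger genes, a list that shares 8 genes with the receptors, 6 fell and 0 rose (24% against 4.93%), with a median change of -0.38. Mrc1, Trem2 and Mertk were 3 of these. Lipa, the acid lipase, read 14.64, 14.70 and 14.83 and then 13.73, 13.55 and 13.32 (2.28-fold lower, adjusted p 0.0292), and Hexa, a lysosomal enzyme that breaks down gangliosides, fell 2.11-fold. The cathepsins did not pass, with changes from -0.65 for Ctsl to 0.73 for Ctsz. The replicate block left 3 of the 6 falls, and median scaling gave 2 falls and 1 rise, so this count depends on the setting.

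Among genes of DNA replication and mitosis many fell. Of 35 tested, 18 fell, 17 did not pass and 0 rose (51.4% against 4.93% of all probes), 30 had a lower and 5 a higher mean, and the median change was -1.33. Ccnb2, the cyclin that drives entry into mitosis with CDK1, read 11.17, 11.54 and 10.50 after acute and 8.22, 7.30 and 7.34 after re-stimulation (11-fold lower, change -3.45 ± 0.37 SE, adjusted p 0.0199). Plk1, a kinase that builds the spindle, read 10.13, 10.73 and 9.88 and then 7.16, 7.06 and 6.44 (10.3-fold lower, adjusted p 0.0171). Ccna2, the cyclin of S phase and G2, read 9.63, 10.02 and 9.41 and then 7.15, 6.54 and 6.25 (8.21-fold lower, adjusted p 0.0173). For these genes the acute arrays lay close to the naïve ones, with naïve Ccnb2 at 11.68, 11.91 and 10.31, so the drop was from the resting level. Among genes of the spindle and chromosomes, Prc1 fell 6.01-fold, Birc5 5.83-fold and Top2a 5.75-fold. Kif11 was 6.46-fold lower when set against the lowest signal well above background. The nucleotide enzymes Rrm1 and Rrm2 fell 2.29- and 3.74-fold. Of the MCM helicase subunits only Mcm7 passed, 1.69-fold lower (11.07, 11.13 and 11.10 to 10.37, 10.35 and 10.31, adjusted p 0.0456, or 0.0553 with the replicate block), and Mcm2, Mcm3, Mcm4, Mcm5 and Mcm6 changed by -0.22 to -1.01 without passing. Cyclin E1 (Ccne1), which acts at the start of S phase, read 11.95, 11.20 and 10.43 and then 13.66, 13.83 and 11.83 and did not pass (adjusted p 0.125), although it did with the replicate block (0.044). Between 16 and 21 of the 35 fell under the other scalings and background corrections, and 24 fell and 2 rose with replicates 1 and 2 alone.

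Many mitotic genes are controlled through a short promoter element called CHR, with the letters TTTGAA, together with CCAAT boxes. The stretch of 250 bases before the Ccnb2 start (RefSeq, GRCm38.p6, chr9:70421555-70421804, minus strand) is shown because Ccnb2 had the largest fall of the list, with the CHR letters in capitals, 167 to 162 bases before the start.
Ccnb2: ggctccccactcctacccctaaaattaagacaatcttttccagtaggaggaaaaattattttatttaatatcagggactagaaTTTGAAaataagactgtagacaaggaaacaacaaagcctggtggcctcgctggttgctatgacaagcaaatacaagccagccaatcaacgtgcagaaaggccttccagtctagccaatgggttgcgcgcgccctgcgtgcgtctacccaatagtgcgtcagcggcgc
Searched on both strands over the same 250 bases, these letters occurred in 10 of the 30 list genes with a promoter in the table and in 16% of all 32851 promoters. They were as common among the interferon-stimulated effectors (10 of 30 genes) and occurred in 5 of 10 genes of immune GTPases, so they are not particular to the mitotic list. A match is a description of the letters and not a tested site.

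In the antiviral program falls outnumbered rises, though not with median scaling. Of 39 tested interferon-stimulated effector genes, 8 fell and 1 rose (23.1% passed against 4.93%), with a median change of -0.41. Over all probes 2.62% were lower and 2.31% higher, so the single rise is near the share of all probes. Cmpk2, a nucleotide kinase beside the viperin gene, read 10.45, 10.50 and 9.94 in naïve cells, 17.19, 17.09 and 16.35 after acute and 14.59, 14.69 and 15.04 after re-stimulation, a fall of 4.29-fold (change -2.10 ± 0.28 SE, adjusted p 0.0241). Rsad2, viperin itself, which makes a chain-ending nucleotide, read 18.03, 17.96 and 17.51 and then 15.99, 16.16 and 16.34 (3.18-fold lower, adjusted p 0.0226). Mx1, a GTPase that blocks viral replication, fell 2.36-fold (16.72, 16.64 and 16.57 to 15.37, 15.24 and 15.60, adjusted p 0.0256). In each case the re-stimulated arrays were below every acute array and still far above the naïve ones. Bst2, tetherin, which holds budding virus at the cell surface, was the member that rose: it read 15.65, 15.71 and 15.65 and then 17.40, 17.32 and 17.03 (2.99-fold, adjusted p 0.0201). Isg15, a ubiquitin-like modifier, read 17.89, 17.71 and 17.44 and then 18.20, 17.89 and 18.19 (change 0.41, 95% interval -0.06 to 0.89, adjusted p 0.243), and Usp18, which removes it, changed by -0.44 (adjusted p 0.14). Neither passed. Ifit1, Ifit2 and Ifit3, which bind foreign RNA, had changes of -1.33, -1.25 and -0.98 with adjusted p-values of 0.0539 to 0.0838. With no detection filter 1 rose and 0 fell, and in 1 fit of all 9 groups 3 rose and 4 fell. With median scaling the list held 4 rises and 3 falls and its median was -0.07, where the median of all probes was 0.24. The replicate block gave 4 rises and 10 falls.

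Interferon-inducible GTPases, which attack the vacuoles of intracellular microbes, had mostly lower means. Of 16 tested, a list gathered after the values had been seen that shares 8 genes with the list above, 6 fell and 0 rose (37.5% against 4.93%), with a median change of -1.22. Iigp1 read 13.22, 13.19 and 12.10 and then 10.93, 11.07 and 10.96 (3.62-fold lower, adjusted p 0.0384). Igtp read 16.04, 15.93 and 15.62 and then 14.71, 14.64 and 14.52 (2.36-fold lower, adjusted p 0.0275). Irgm2 and Ifi47 fell 2.34- and 2.35-fold. Tgtp1 fell 2.78-fold (adjusted p 0.0333, or 0.051 with the replicate block), while its near-identical neighbour Tgtp2 changed by -0.71 (adjusted p 0.137), and probes for such copies can share signal. Guanylate-binding proteins Gbp2 and Gbp3 lay at changes of 0.05 and 0.07, with adjusted p-values of 0.956 and 0.916, and Gbp5 at -1.54 (adjusted p 0.0618). With median scaling 2 of the 16 fell, in 1 fit of all 9 groups 1, with no detection filter 0 and with replicates 1 and 2 alone 10.

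STAT factors reach these genes through the interferon-stimulated response element (ISRE), whose core was searched as GAAA, any 2 bases and GAAA on both strands in the 250 bases before each start. It was found in 16 of the 30 effector genes and 9 of the 10 GTPase genes with a promoter in the RefSeq table, and in 2.98% of all 32851 promoters. Windows of 30 bases (GRCm38.p6) are shown for genes that fell, rose and did not pass, with the core, or its reverse complement, in capitals.
Rsad2: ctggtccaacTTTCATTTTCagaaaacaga
Igtp: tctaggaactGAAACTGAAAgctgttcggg
Irgm2: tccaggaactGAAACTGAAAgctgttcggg
Tgtp1: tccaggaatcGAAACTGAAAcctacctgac
Bst2: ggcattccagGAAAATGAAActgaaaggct
Isg15: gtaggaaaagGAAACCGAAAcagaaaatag
Ifit1: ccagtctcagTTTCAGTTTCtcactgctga
The windows lie at chr12:26456553-26456582 (Rsad2), chr11:58199512-58199541 (Igtp), chr11:58214903-58214932 (Irgm2), chr11:48992304-48992333 (Tgtp1), chr8:71537583-71537612 (Bst2), chr4:156200871-156200900 (Isg15) and chr19:34640794-34640823 (Ifit1). Rsad2, Igtp, Irgm2 and Tgtp1 fell, Bst2 rose and Isg15 and Ifit1 did not pass, so genes with these letters were found in each class. Igtp and Irgm2 are neighbouring copies, and their windows are nearly the same.

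Genes upstream of these were tested next. Of 21 genes of RNA sensing and TRIF or MAVS signalling, 2 fell and 1 rose (14.3% against 4.93%), with a median change of -0.15, and 4 higher and 7 lower genes had an unadjusted p under 0.05. Irf7, the factor that amplifies interferon production, read 11.74, 12.55 and 10.37 in naïve cells, 13.67, 14 and 13.22 after acute and 16.08, 16.06 and 14.89 after re-stimulation (4.14-fold higher, adjusted p 0.0424). Eif2ak2, the RNA-activated kinase PKR, read 13.35, 13.28 and 12.98 and then 11.52, 11.20 and 11.93 (3.15-fold lower, adjusted p 0.0271). E330016A19Rik, which is the DNA sensor Cgas in RefSeq, fell 2.86-fold (adjusted p 0.0275). Irf7 thus ended above every acute array and the other two below. Tlr3 read 8.51, 8.90 and 7.63 and then 7.48, 6.97 and 6.97 (change -1.21, adjusted p 0.1), and Ifih1 read 16.12, 15.60 and 14.70 and then 13.53, 13.71 and 14.17 (change -1.67, adjusted p 0.0622). The values of both receptors did not overlap between groups but did not pass, nor did Ticam1 (0.96), Mavs (0.22) or Tbk1 (-0.23). Of 14 genes for type I interferons, their receptor and JAK-STAT signalling, 0 passed by limma, while 3 had an unadjusted p under 0.05. Over all probes 4.93% passed and 7100 of 27139 reached that unadjusted p. Ifnb1, interferon-β, read 3.13, 2.95 and 2.93 in naïve cells, 12.22, 11.68 and 10.99 after acute and 13.41, 11.31 and 12.69 after re-stimulation (change 0.84, 95% interval -0.56 to 2.25, adjusted p 0.406). It lay far above the naïve arrays after both stimulations, and the acute and re-stimulated values overlapped. Socs1, the inhibitor of JAK kinases, read 14.69, 14.68 and 14.02 and then 10.34, 10.15 and 12.94 (change -3.32 ± 0.75 SE, adjusted p 0.0582), and passed with replicates 1 and 2 alone.

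**Figure D4:**
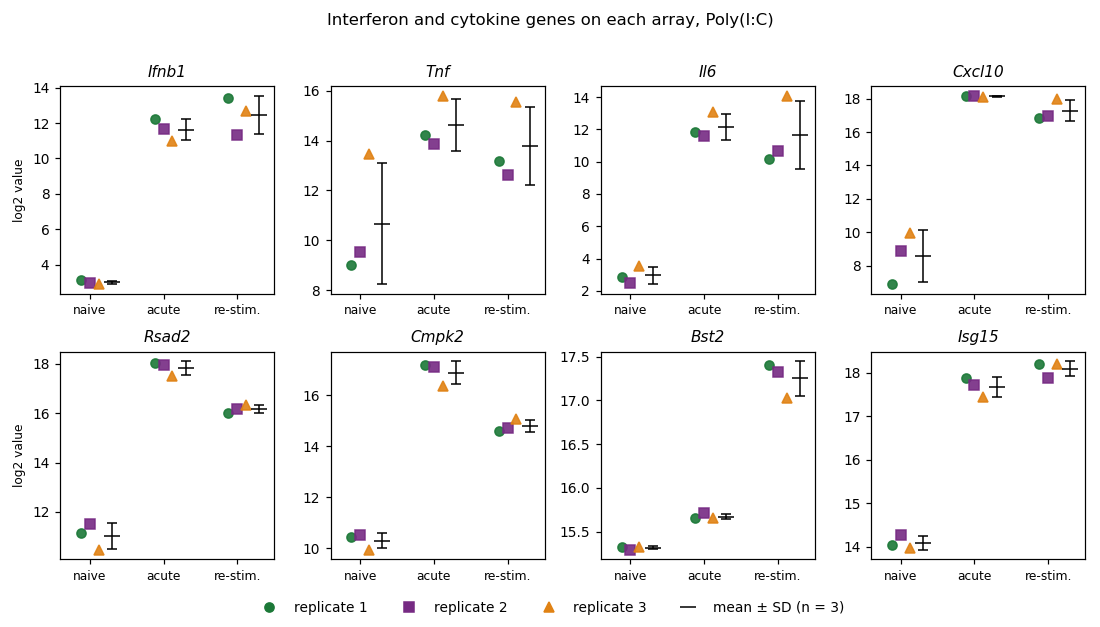
Log2 value (vertical axis) of 8 interferon and cytokine genes on each naïve, acute and re-stimulated Poly(I:C) array. Points are arrays by replicate, and black marks are means ± SD of 3 arrays. Acute and re-stimulated values overlap for Ifnb1, Tnf and Il6 and separate downward for Rsad2 and Cmpk2 and upward for Bst2.

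Of 23 cytokines tested, 2 rose and 1 fell (13% against 4.93%), with a median change of -0.47, and the replicate block gave 8 rises and 3 falls, where over all probes it gave 843 and 905 of 27139. Il1b, interleukin-1β, read 7.86, 8.42 and 9.15 after acute and 11.05, 11.91 and 13.50 after re-stimulation (12.8-fold higher, change 3.68 ± 0.66 SE, adjusted p 0.0392). Vegfa, a growth factor for vessels, read 10.81, 10.85 and 9.94 in naïve cells, 8.67, 9.34 and 9.11 after acute and 11.05, 11.35 and 10.48 after re-stimulation (3.78-fold higher, adjusted p 0.0299). Hbegf, a ligand of the EGF receptor, read 7.51, 7.80 and 7.12 and then 5, 5.12 and 5.40 (4.93-fold lower, adjusted p 0.0183). Acute and re-stimulated values were separate for all 3 genes. Tnf read 14.22, 13.86 and 15.80 and then 13.17, 12.63 and 15.56 (change -0.84, 95% interval -2.93 to 1.25, adjusted p 0.575). Il6 read 11.82, 11.60 and 13.05 and then 10.19, 10.66 and 14.09 (change -0.51, 95% interval -3.04 to 2.02, adjusted p 0.787). For both, replicate 3 was the highest array of its group and the groups overlap. Within replicates Tnf was lower in all 3 (by -1.05, -1.23 and -0.24, adjusted p 0.104 with the replicate block), and Il6 was lower in replicates 1 and 2 and higher in replicate 3. Without re-stimulated replicate 1 the change of Il6 turned to 0.22. Il12b changed by 1.37 (adjusted p 0.346) and Il10 by -1.59 (adjusted p 0.546), with all 3 replicates lower (adjusted p 0.0636 with the replicate block), and Il12a was not well above background on enough arrays to be tested. Inhba, a subunit of activin, read 8.73, 8.77 and 6.78 and then 13.77, 14.05 and 9.61 (20.9-fold, adjusted p 0.0947, or 0.0393 with the replicate block).

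Of 19 chemokines tested, 1 fell and 0 rose (5.26% against 4.93%), a share near that of all probes. Their changes ran from -3.04 to 2.31, and with replicates 1 and 2 alone 5 fell and 1 rose. Over all 27139 probes 2609 fell and 3130 rose with these replicates. Cx3cl1, fractalkine, which tethers leukocytes, read 7.69, 8.11 and 8.22 in naïve cells, 10.00, 10.44 and 9.92 after acute and 7.15, 7.26 and 6.85 after re-stimulation (8.22-fold lower, change -3.04 ± 0.22 SE, adjusted p 0.0141). Cxcl10, which attracts T cells, read 18.15, 18.17 and 18.12 and then 16.86, 16.96 and 18.00 (change -0.88, adjusted p 0.155), near the upper end of the scale on the acute arrays. Ccl5 read 18.24, 18.35 and 16.92 and then 18.82, 18.82 and 18.55 (change 0.89, adjusted p 0.217), near the upper end of the scale after re-stimulation. Cxcl9 changed by -2.09 (adjusted p 0.315), with acute values of 14.56, 14.42 and 10.45.

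NF-κB subunits and the feedback inhibitors of the pathway gave 1 rise and 0 falls among 22 tested (4.55% against 4.93%), a share near that of all probes. The riser was Trib3 (18.4-fold, adjusted p 0.0309, or 0.054 with the replicate block), a pseudokinase better known from the amino acid stress response. Nfkb1, the p105/p50 subunit, read 12.45, 12.01 and 11.49 and then 10.70, 10.25 and 11.36 (change -1.21, adjusted p 0.106). Bcl3 changed by 0.31 (adjusted p 0.37), Nfkbia by 0.06 and Tnfaip3 by -0.28. The next list held immediate early genes and the phosphatases that switch off MAP kinases. Of 23 tested, 6 rose, 17 did not pass and 0 fell (26.1% against 4.93%), with a median change of 0.73. Dusp1, a phosphatase for p38 and JNK, read 9.62, 9.60 and 9.58 and then 12.31, 12.08 and 11.99 (5.77-fold higher, change 2.53 ± 0.17 SE, adjusted p 0.0117, equal to the smallest of all probes). Fosl2 read 8.54, 8.91 and 7.66 and then 10.63, 10.73 and 10.66 (4.93-fold, adjusted p 0.0263), against 10.62, 10.80 and 9.58 in naïve cells. A second Fosl2 probe had a lower mean after re-stimulation and did not pass. Fosl1, a relative of Fosl2 in the AP-1 family, rose 4.81-fold from levels at which only 1 acute array was well above background. Ier2, Egr1 and Ier3, which serum and growth signals induce within minutes, rose 4.79-, 4.58- and 3.76-fold. Fos and Jun themselves changed by 0.52 and -0.82 (adjusted p 0.345 and 0.109).

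Among enzymes that make lipid mediators and nitric oxide, some rose and some fell. Of 17, 2 rose and 2 fell (23.5% against 4.93%), with a median change of -0.08. Ptgs2, cyclooxygenase-2, read 3.11, 3.10 and 4.86 in naïve cells, 8.81, 8.73 and 9.64 after acute and 11.52, 11.38 and 11.99 after re-stimulation (5.94-fold higher, adjusted p 0.0219). Together with the fall of Hpgd, the enzyme that makes prostaglandins was higher and the one that inactivates them lower. Alox5ap, the partner protein of 5-lipoxygenase in leukotriene synthesis, read 15.36, 15.36 and 15.08 and then 13.96, 14.21 and 14.39 (2.11-fold lower, adjusted p 0.0387, or 0.0533 with the replicate block). Ass1, which recycles citrulline to arginine, rose 6.97-fold at an adjusted p that rounds to 0.05, and Nos2, the inducible nitric oxide synthase, changed by 2.00 (adjusted p 0.118). Aim2, a DNA sensor of the inflammasome, fell 2.83-fold (adjusted p 0.0445, or 0.051 with the replicate block), and Nlrp3 changed by -0.03. On the cell surface, 1 of 25 genes of costimulation and antigen presentation passed (4% against 4.93%), a share near that of all probes. Cd69, an early activation lectin, read 4.04, 4.70 and 7.92 in naïve cells, 15.04, 15.25 and 14.78 after acute and 10.45, 9.93 and 12.51 after re-stimulation (16.7-fold lower, adjusted p 0.0317).

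Among antimicrobial and acute-phase proteins, several abundant messages rose. Of 25 antimicrobial and pro-resolution factors, 3 rose and 1 fell (16% against 4.93%), with a median change of 1.03, which was -0.09 with replicates 1 and 2 alone. Cfb, factor B of the alternative complement pathway, read 5.67, 6.04 and 6.98 in naïve cells, 11.37, 11.15 and 10.22 after acute and 16.24, 16.68 and 14.91 after re-stimulation (32.7-fold higher, change 5.03 ± 0.53 SE, adjusted p 0.0194). Saa3, serum amyloid A of macrophages, read 12.18, 13.12 and 14.13 and then 17.37, 17.86 and 18.82 (29.3-fold, adjusted p 0.0209), and Saa1 read 10.96, 11.70 and 12.72 and then 15.91, 16.51 and 17.26 (27.2-fold, adjusted p 0.0201). On the log2 scale Cfb differed about as much between naïve and acute as between acute and re-stimulated cells. The serum amyloids differed mostly between acute and re-stimulated cells. No array was taken after the 24 h exposure and before the second dose, so the parts of these in the re-stimulated level cannot be told apart. Of 8 serum amyloid and other acute-phase genes, gathered after the values had been seen, 2 rose and 0 fell (25% against 4.93%), with a median change of 3.32. Saa1 and Saa3 belong to a family of close copies, so their probes may share signal. Slpi, an inhibitor of neutrophil proteases, read 13.51, 13.70 and 12.26 and then 16.88, 17.26 and 15.27 (9.94-fold higher, adjusted p 0.0416). Mmp12, macrophage elastase, read 13.37, 13.11 and 12.62 and then 10.84, 10.33 and 10.38 (5.7-fold lower, adjusted p 0.0194). Among 21 complement genes, a list gathered after the values had been seen, 3 rose (Cfb, C2 and C1s) and 3 fell, among them Itgax and Vsig4 (28.6% against 4.93%). C1s was not well above background on any acute array and was 4.51-fold higher when set against the lowest signal well above background. C3 itself changed by 1.81 (adjusted p 0.0536).

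Some genes that BMP and TGF-β signals switch on through SMAD factors were among the largest rises. Of 21 tested, gathered after the values had been seen, 6 rose and 1 fell (33.3% against 4.93%), with a median change of 0.08. With no detection filter 3 rose and 0 fell. Id3, an inhibitor of helix-loop-helix transcription factors, read 12.46, 11.32 and 9.75 in naïve cells, 9.63, 8.30 and 8.40 after acute and 13.47, 13.12 and 12.88 after re-stimulation (20.8-fold higher, change 4.38 ± 0.39 SE, adjusted p 0.0171). Id1 read 4.67, 5.49 and 5.17 and then 8.37, 8.21 and 10.32 (14.5-fold, adjusted p 0.0295), and Id2 rose 3.04-fold. Smad6, an inhibitory SMAD, read 6.28, 6.31 and 4.37 and then 10.07, 9.68 and 10.26 (20.4-fold, adjusted p 0.0226), and Smad7, its partner, rose 17.1-fold from a level at which 1 acute array was well above background. All 3 Id genes and both inhibitory SMADs were thus higher on every re-stimulated array, while the signalling SMADs (Smad1, Smad2, Smad3, Smad4 and Smad5) changed by -0.17 to 1.27 without passing. The ligand Bmp2 fell 6.27-fold (adjusted p 0.0256).

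A further set belongs to the integrated stress response, in which the factor ATF4 answers amino acid shortage, unfolded protein or PKR activity. Of 23 genes, also gathered after the values had been seen, 6 rose and 0 fell (26.1% against 4.93%), with a median change of 1.32. The count of rises was 2 with no detection filter, 11 in 1 fit of all 9 groups and 17 with replicates 1 and 2 alone, and the replicate block gave 6 rises and 1 fall. Chac1, which degrades glutathione, read 5.92, 3.96 and 7.38 and then 10.74, 11.43 and 10.69 (36.7-fold higher, the largest rise by the naming rule, adjusted p 0.0312). Trib3 read 8.13, 7.48 and 9.46 and then 12.76, 13.41 and 11.49. Ddit3, the death-related factor CHOP, read 9.75, 9.29 and 8.95 and then 13.48, 13.44 and 11.09 (10.1-fold, adjusted p 0.0481). Gadd45a rose 10.3-fold, Ddit4 7.85-fold and Cebpb 3.29-fold. The synthesis enzymes Asns, Phgdh and Psat1 changed by 1.71, 2.18 and -0.11 and did not pass, with adjusted p-values of 0.256 to 0.908. Soat2, which esterifies cholesterol and is on no list here, rose 34.8-fold (4.11, 2.97 and 6.57 to 10.31, 10.45 and 8.24, adjusted p 0.0478, or 0.0712 with the replicate block). Of 10 clock genes, gathered in the same way, Per1, Per2 and Cry2 rose 6-, 6.89- and 2.72-fold and 0 fell (30% against 4.93%). Per1 read 11.62, 11.58 and 11.13 in naïve cells, 7.96, 8.09 and 9.20 after acute and 11.23, 11.48 and 10.29 after re-stimulation, so its rise led back toward the naïve level (adjusted p 0.0367, or 0.0588 with the replicate block).

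Of 25 nuclear genes of the respiratory chain, 20 of glycolysis and the HIF-1 response, 20 of sterol synthesis and efflux and 13 targets of NRF2, 0 passed in each by limma, and at an unadjusted p under 0.05 there were 4, 6, 4 and 4. Over all probes 4.93% passed and 7100 of 27139 reached that unadjusted p, so these counts do not set the lists apart. Their median changes were 0.20, 0.39, -0.32 and 0.52. The 13 protein-coding genes of the mitochondrial genome, looked at after their values had been seen, all had a lower mean, 6 of them passed (46.2% against 4.93%), and the median change was -1.14. CYTB, a subunit of complex III, read 16.13, 15.60 and 15.69 and then 14.06, 14.01 and 14.48 (3.09-fold lower, adjusted p 0.0261), and ND3 of complex I read 14.19, 14.07 and 13.96 and then 12.04, 11.96 and 13.16 (3.22-fold lower, adjusted p 0.0488, or 0.0565 with the replicate block). COX1 and ND6 changed by -0.27 and -0.09. The nuclear and mitochondrial parts of the same complexes therefore differed in their median change. With median scaling 1 of the 13 passed and 2 had a higher mean, and with the replicate block 3 passed.

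The largest family examined was that of zinc finger genes. Of 299 tested genes whose symbol is Zfp and a number, looked at after their values had been seen and a large group of zinc finger proteins that mostly bind DNA, 36 rose, 263 did not pass and 0 fell (12% against 2.31% of all probes higher). The mean of 237 was higher and of 62 lower, with a median change of 0.53. The largest rises, chosen after their values were seen, were Zfp760, Zfp286 and Zfp945, with changes of 2.60, 2.54 and 2.54. Over the other scalings and background corrections 33 to 55 rose and 0 to 3 fell, with no detection filter 1 rose, and with replicates 1 and 2 alone 102 rose and 11 fell. Median scaling turned the median change of the RNA sensing, mediator and complement lists from -0.15, -0.08 and -0.14 to 0.12, 0.19 and 0.17, so their lean has no settled direction.

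**Figure D5:**
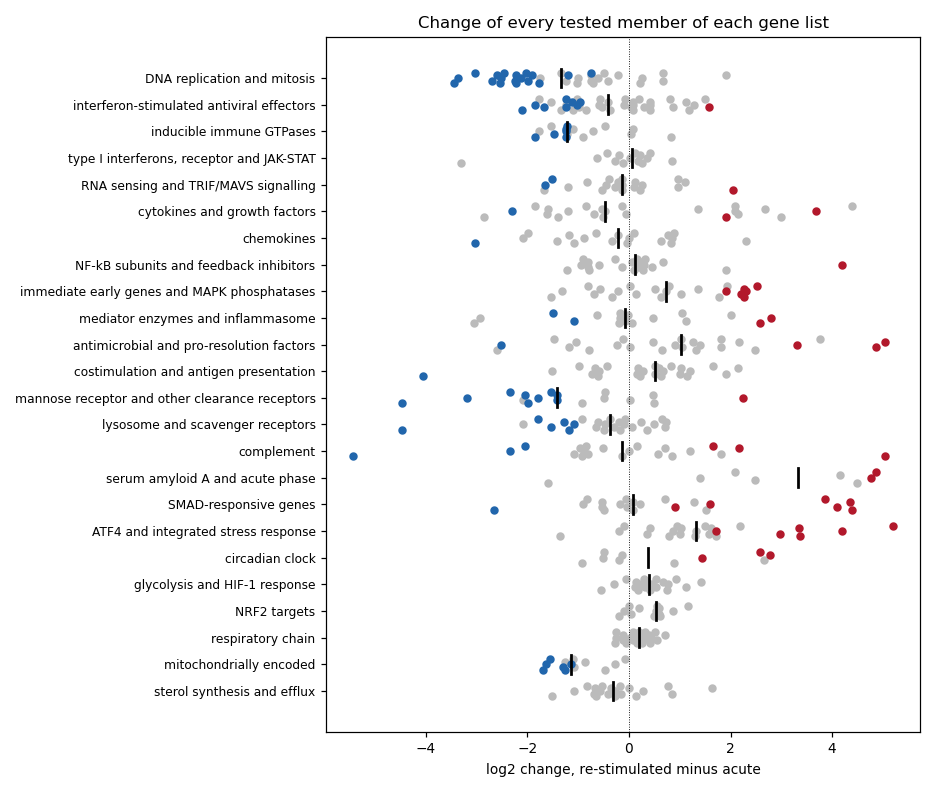
Log2 change on re-stimulation (horizontal axis, re-stimulated minus acute) of every tested member of 24 gene lists (rows). Each point is a gene, red if it rose and blue if it fell by limma, grey if it did not pass, and the black bar is the median of the list. The replication and mitosis genes lie mostly to the left (median -1.33) and the stress response genes to the right (median 1.32).

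Whether these changes differed from those on re-stimulation with CpG (Toll-like receptor 9) or Pam3CSK4 (Toll-like receptor 2) was tested as a difference of changes in limma, with 12 and 11 arrays. By this test 0 of 27783 probes passed for CpG (0%) and 0 of 27725 for Pam3CSK4 (0%), with 2845 and 2753 at an unadjusted p under 0.05 and smallest adjusted p-values of 0.187 and 0.0618. A miss does not show that the ligands acted alike. Without Poly(I:C) re-stimulated replicate 3, 448 probes passed against CpG and 337 against Pam3CSK4, and in 1 fit of all 9 groups 11 and 39 passed. The means of several risers lay far apart. Id3 changed by 4.38 with Poly(I:C), by -0.07 with CpG and by 0.70 with Pam3CSK4, with differences of 4.45 ± 0.86 (SE, adjusted p 0.284) and 3.68 ± 0.99 (adjusted p 0.326). Ptgs2 changed by 2.57, -0.63 and -0.06, and its difference from CpG of 3.20 ± 0.51 had the smallest adjusted p (0.187). Chac1 changed by 5.20, -0.23 and -1.55 (adjusted p 0.284 and 0.144), and Dusp1 by 2.53, -0.10 and 0.36 (adjusted p 0.284 and 0.144). Socs1 changed by -3.32, 0.53 and 1.39 (adjusted p 0.346 and 0.294). Other genes had near means with all 3 ligands. Cfb changed by 5.03, 4.57 and 5.11, Smad6 by 4.35, 3.58 and 4.14, Mamdc2 by -5.88, -4.87 and -4.97 and Ccnb2 by -3.45, -3.10 and -2.62, with adjusted p-values for the differences of 0.694 to 0.982. The doses and receptors of the ligands differ, so the sizes are given side by side only.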

How the data were processed

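RNA from the macrophage cultures was labelled with 1 dye and hybridised to Agilent mouse arrays. The deposited scanner files give the intensity of each spot, and the deposited table of processed values gives log2 values that the authors made from these intensities, by background correction and quantile normalization. The submitters' processing notes name RMA and limma. Remaking the values from the intensities gave a median absolute difference of 2.8e-10 and a largest one of 0.997. The members and gene lists were chosen with earlier results of these data known, and the lists for SMAD, ATF4, complement, serum amyloid A, mitochondrially encoded, clock, clearance receptor, GTPase and Zfp genes were chosen after the values had been seen.

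A probe was tested where 2 or more of the 3 arrays of one of the groups were well above background. Changes were fitted with limma 3.58.1 (lmFit and eBayes) in R 4.3.3, on the 6 arrays without pairing. P-values were two-sided and adjusted by the Benjamini-Hochberg method, and a change passed at an adjusted p under 0.05 and at least 1.5-fold. Differences between ligands were fitted as interactions. Errors are standard errors over 3 arrays a group, whose number limits the precision. Where a probe was not well above background on any array of a group, the fold was set against a floor. The floor was the higher of the lowest signal well above background and the probe's own value. That signal is the lowest over all probes of an array, so the fold is not a strict lower bound. The rule for named genes took the 8 largest rises and 8 largest falls among RefSeq genes that passed, whose groups did not overlap and whose higher group was well above background on 2 or more arrays, up to 3 passing members of each pathway list in each direction, and a fixed set of genes whatever their result. Some genes that the rule takes are not reported here. Other list members that are given with values were chosen after their values were seen. A gene with several probes is given by its brightest tested probe, or among the largest changes by the probe that changed most.

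Replicate numbers were checked for pairing. The deviations of acute and re-stimulated arrays from their group means correlated at 0.418, 0.297 and 0.468 for the same number, and at -0.402 to 0.155 otherwise, over 27139 probes, and each number lay on 1 slide. The numbers were therefore taken to pair the samples, and the replicate block is given for some of the calls that it changed. Calls, counts and adjusted p-values are from the fit without the block unless it is named, and 958 of the 1338 probes passed with it. Of the genes that the rule named, Soat2, Trib3, Mertk, Aim2 and Alox5ap no longer passed with the block. On simulated data with the real means and spreads, 52 of 100 changes of 2 and 89 of 100 changes of 4 on the log2 scale were recovered in the acute against re-stimulated comparison of 27139 probes. For the difference from CpG 63 and 93 of 100 were recovered, and for that from Pam3CSK4 36 and 79. The simulated arrays varied independently and few probes changed, unlike in the data, so these rates may not hold there. Alternatives were median scaling, normexp background correction (offset 50), the processed signal scaled to its 75th percentile, other detection filters, an intensity trend, the block, 1 fit of all 9 groups and leaving out each array. Promoters are from RefSeq (GRCm38.p6), and probe positions are in mm9.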

Additional observations from a re-analysis of the deposited data

How the results depend on the processing

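The direction of all 1338 passing probes was kept in every setting that tested them. Their groups did not overlap, so only the other scalings and background corrections could have turned it. The number that passed depended on single arrays. Left out 1 at a time, the arrays gave 0 to 1602 higher and 0 to 1527 lower probes. Median scaling gave 1010 higher probes, the stricter detection filter 945, no detection filter 79 higher and 149 lower (34.6% higher), and 1 fit of all 9 groups 2094 and 1641. Among settings chosen after seeing the data, array weights gave 3605 and 3017, replicates 1 and 2 alone 3130 and 2609, and replicates 1 and 3 or 2 and 3 alone 0 and 0. For the difference from CpG the arrays left out 1 at a time gave 0 to 448 probes, and for that from Pam3CSK4 0 to 337. The fit of all 9 groups gave 11 and 39, and for Pam3CSK4 the 75th percentile scaling gave 8 and the stricter filter 3. Without CpG acute replicate 3 there were 19 for CpG, and without Pam3CSK4 re-stimulated replicate 3 there were 8 for Pam3CSK4. The cause was not tested.

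With the replicate block, which follows the pairing by slide, 843 probes were higher and 905 lower, and 0 passed for either ligand difference. The block with replicates 1 and 2 alone gave 2851 and 2646, and with replicates 1 and 3 or 2 and 3 alone 0 and 0. Of the named genes, the change of Il6 turned from -0.51 to 0.22 without re-stimulated replicate 1, and to 0.0512 with replicates 2 and 3 alone, with and without the block. Over the arrays left out 1 at a time it lay between -1.73 and 0.22, and with replicates 1 and 2 alone it was -1.28 (limma, adjusted p 0.0329). The 3 arrays a group, and signal over background for dim probes, limit what could be detected.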

Other observations

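Some large changes did not pass and lie outside the rule for named genes, and they were chosen after their values were seen. Gm15056, a gene known by its model number, changed by 7.62 on re-stimulation (limma, adjusted p 0.0807), and Ly6f, a member of the Ly6 surface protein family, by 5.67 (adjusted p 0.102). Both are larger than the largest rise that passed, that of Chac1 at 5.20.

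Among the named genes with several tested probes, the probes of Fosl2 disagreed in direction, with 1 of 2 higher, and those of Hpgd and Ass1 agreed in direction while 1 of 2 passed. All 3 probes of E330016A19Rik were lower and 2 passed.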
